A study of Mus musculus with 10 samples.

Results

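Fos, Jun and Egr1 are immediate early genes, short genes that are switched on within minutes of a stimulus without new protein synthesis. Fos and Jun proteins pair to form the transcription factor AP-1, and Egr1 is a zinc finger transcription factor. Their promoters are typically held open with RNA polymerase II (Pol II) paused near the start, and release of the polymerase into the gene is a main control step. In embryonic stem cells many regulatory genes also carry the repressive Polycomb mark.

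The 3 genes were described in lists of ChIP-seq peaks. The cells were R1E embryonic stem cells of the mouse, with a mixed C57BL/6X129Sv background. They had been given Adriamycin at 0.5 uM over 8 h or were left untreated, and a vehicle control is not mentioned in the labels. Adriamycin (doxorubicin) is a topoisomerase II poison that breaks DNA. Both groups were grown in serum with leukemia inhibitory factor, and both come from 1 cell line. The 5 ChIP targets were H3K4me3 (a mark of promoters), H3K27me3 (the Polycomb mark), H3K79me2 (a mark of transcribed genes), Pol II itself, and the RNA-binding protein hnRNP L.

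Members were all peaks overlapping the mm9 gene spans extended by 20 kb on each side. The spans were chromosome 12 at 86814851-86818219 for Fos, chromosome 4 at 94716000-94719230 for Jun and chromosome 18 at 35020861-35024611 for Egr1. Of 543779 deposited peaks in 10 lists, 66 were members, of which 26 lay at Fos, 10 at Jun and 30 at Egr1. The Adriamycin lists held 32 of them and the untreated lists 34. Each target had 1 library per condition, so no difference between conditions has a replicate check and no p-value is given. No annotation on mm9 was used here, so peaks were not assigned to neighbouring genes and the stem cell markers of the line were not checked.

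As whole lists, the Adriamycin libraries had the shorter covered length. It was 54.7 Mb after Adriamycin and 77.4 Mb in untreated cells for Pol II, and 75.3 Mb and 101.0 Mb for H3K27me3. Read depth was unknown. To read the genes against this, the same covered lengths were taken in 32392 windows of 43.5 kb, each centred on an H3K4me3 region found in both conditions. Such a region joins the overlapping H3K4me3 peaks of both lists. The covered kb plus 1 after Adriamycin was divided by the covered kb plus 1 in untreated cells, and a log2 of this ratio of 1 or more in size counted as a call. These windows overlap one another in places and describe the 2 libraries only.

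The promoters of Fos and Jun are shown because H3K4me3 and Pol II peaks lay over them in both conditions. The 250 bases before the start are from RefSeq on GRCm38.p6, on the plus strand for Fos (chr12:85473640-85473889) and the minus strand for Jun (chr4:95052223-95052472). Capitals mark the motifs found on either strand.
Fos: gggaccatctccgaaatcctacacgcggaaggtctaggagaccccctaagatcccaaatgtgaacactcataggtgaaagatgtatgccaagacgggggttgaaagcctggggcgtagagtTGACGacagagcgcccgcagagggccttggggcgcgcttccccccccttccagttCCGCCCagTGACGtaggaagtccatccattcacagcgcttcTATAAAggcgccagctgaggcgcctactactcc
Jun: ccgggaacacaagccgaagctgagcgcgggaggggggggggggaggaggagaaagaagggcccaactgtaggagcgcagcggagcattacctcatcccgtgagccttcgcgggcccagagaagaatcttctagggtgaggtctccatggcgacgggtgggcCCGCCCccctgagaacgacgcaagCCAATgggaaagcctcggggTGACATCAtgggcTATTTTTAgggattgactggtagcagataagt

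In the Fos promoter, TGACG, the core of the cAMP response element bound by CREB, began 129 and 66 bases before the start. The TATA box (TATAAA) began 33 bases before it, and a GC box (GGGCGG on the minus strand) 74 bases before it. In the Jun promoter, TGACATCA, an AP-1-like site through which Jun protein is known to act on its own gene, began 45 bases before the start. A core of the MEF2 type (TATTTTTA) began 32, a CCAAT box (CCAAT) 65 and a GC box on the minus strand 89 bases before the start. The motifs were picked for what is known of these promoters, and no motif overlapped another. On either strand of 32851 RefSeq promoters of the same length, TGACG was present in 17.8%, TATAAA in 12.4%, GGGCGG in 32.7%, CCAAT in 33.8%, TGACATCA in 2.93% and TATTTTTA in 2.45%. A match is a string of letters and not a measured binding site. GC content was 58.4% in the Fos and 61.2% in the Jun promoter, against a median of 52.4% over all promoters.

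In the 250 bases before the mm9 starts, H3K4me3 covered 250 bases in both conditions at all 3 genes. Pol II covered all 250 in both conditions at Jun and Egr1. At Fos it covered 166 after Adriamycin and 250 in untreated cells. H3K4me3 and Pol II thus spanned the 250 bases before the mm9 starts, apart from the outer part at Fos in the Adriamycin Pol II list. The printed sequences are on another build, and a base by base match to these mm9 bases is not shown here.

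**Figure D1:**
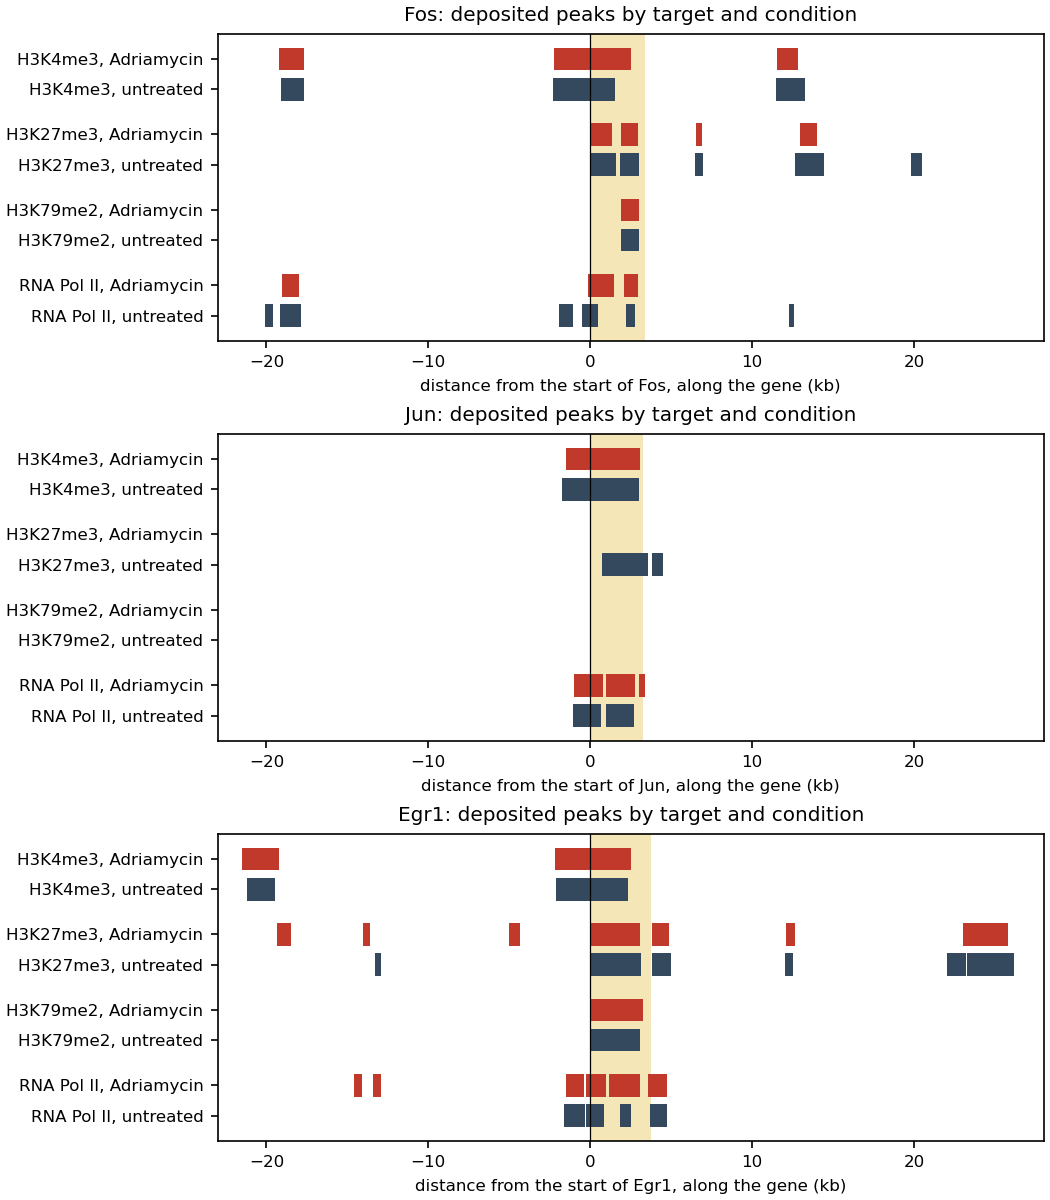
Deposited peaks of 4 targets at Fos, Jun and Egr1, each drawn to scale by distance from the gene's start in kb along the direction of transcription (red, Adriamycin; dark blue, untreated; shaded, the gene). The H3K27me3 peaks over Jun are in the untreated list only, and Pol II peaks reach over more of each gene in the Adriamycin list.

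Over the genes themselves, 3 targets differed in the same direction at 3 of 3 genes, with longer Pol II and H3K4me3 and shorter H3K27me3 after Adriamycin. Pol II peaks covered 70.0% of Fos after Adriamycin and 31.8% in untreated cells, 87.8% and 72.6% of Jun, and 82.8% and 41.7% of Egr1. The Pol II length was thus longer after Adriamycin by 1287 bases at Fos, 492 at Jun and 1541 at Egr1. H3K4me3 covered 2509 bases of the gene after Adriamycin and 1553 in untreated cells at Fos, 3091 and 3006 at Jun, and 2532 and 2311 at Egr1. H3K27me3 covered 2289 bases after Adriamycin and 2716 in untreated cells at Fos, 0 and 2493 at Jun, and 3070 and 3106 at Egr1, 36 bases apart. Without mm9 gene annotation this measure could not be taken over all genes, and the windows serve as background. In the full 20 kb windows Pol II covered more bases after Adriamycin at 2 of 3 genes, while 22.4% of the 28249 windows with Pol II did so. Of 32392 windows, 33.4% had more H3K4me3 bases after Adriamycin. Of 22471 windows with H3K27me3, 81.2% had fewer, so shorter H3K27me3 was the usual direction. H3K4me3 at Jun, 85 bases longer over the gene, was shorter in the full window, and H3K27me3 at Egr1 was longer there.

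Within 1 kb on each side of the start, the length under Pol II peaks differed less between conditions. There Pol II covered 1166 bases after Adriamycin and 1029 in untreated cells at Fos, 1813 and 1671 at Jun, and 1883 and 1753 at Egr1. In untreated cells this was already 83.5% of the stretch at Jun and 87.7% at Egr1, against 51.5% at Fos. Little length could thus be added there at Jun and Egr1, and covered length does not measure the height of a peak. Beyond the first 1 kb of the gene it covered 57.4% after Adriamycin and 24.6% in untreated cells at Fos, 90.8% and 75.1% at Jun, and 77.2% and 27.2% at Egr1. Most of the added length at Egr1 therefore lay beyond the promoter, at 1377 of 1541 bases. At Fos 776 of 1287 bases lay there.

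**Figure D2:**
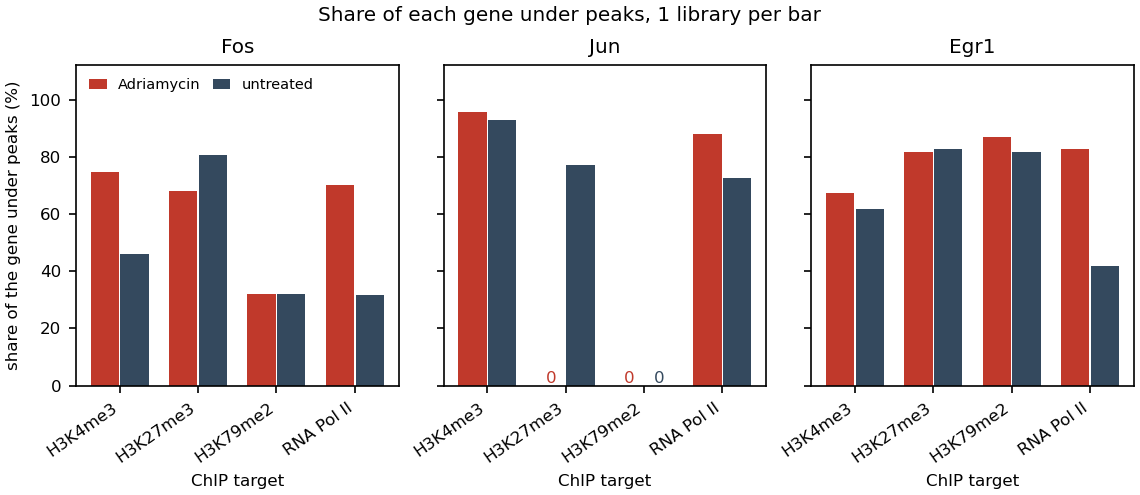
Share of each gene's length (%) under peaks of each target, 1 library per bar, with Adriamycin (red) left of untreated (dark blue) and 0 written where there was no peak. Pol II bars are higher after Adriamycin at the 3 genes, at 70.0% against 31.8% for Fos, and H3K27me3 at Jun is 0 against 77.2%.

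Fos, the AP-1 subunit that does not pair with itself, had a Pol II peak over its start in both lists. After Adriamycin this peak reached from 0.166 kb before the start to 1.48 kb into the gene, with a score of 402.7. In untreated cells it reached from 0.540 kb before the start to 0.488 kb into the gene, with a score of 484.72. The score is the authors' value for each peak and is read within its own list only. By score this peak stood within the top 15.9% of the Adriamycin and the top 19.3% of the untreated Pol II list.

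A second Pol II peak lay in the distal part of Fos. It spanned 2.07 to 2.95 kb from the start after Adriamycin (score 86.91) and 2.19 to 2.77 kb in untreated cells (score 58.53). By score it stood within the top 57.5% of the Adriamycin and the top 87.8% of the untreated Pol II list. In the whole Fos window Pol II covered 3.58 kb after Adriamycin and 4.53 kb in untreated cells, a log2 ratio of -0.27 that 57.7% of windows matched or fell under. The lower total came from outside the gene, since upstream of the promoter Pol II covered 1057 bases after Adriamycin and 2574 in untreated cells. The sign of the window ratio turned with a window of 5 kb, with peaks of score 100 or more, and with equal numbers of peaks in the lists.

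The H3K4me3 peak over the start of Fos was wider after Adriamycin, at 4780 bases, against 3872 in untreated cells. Its upstream edges lay 2271 and 2319 bases before the start, so they differed little. Its inner edge lay 2508 bases into the gene after Adriamycin and 1552 in untreated cells, a shift of 956 bases. Both peaks had the score 3100, which 21.8% of the Adriamycin and 24.0% of the untreated H3K4me3 peaks reached or passed. Equal scores at this value do not show equal strength. Among 6888 pairs of H3K4me3 peaks with a score of 3100 or more in both lists, matched 1 to 1, 1.68% gained as much width or more, and the median difference was -124 bases. At Egr1 the peak was 4701 bases wide after Adriamycin and 4438 in untreated cells, a gain that 8.10% of pairs reached. At Jun the widths were 4621 and 4766 bases, and 54.2% of pairs had a difference as high or higher. The peak was thus wider after Adriamycin at 2 of 3 genes, against 27.9% of the pairs.

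**Figure D3:**
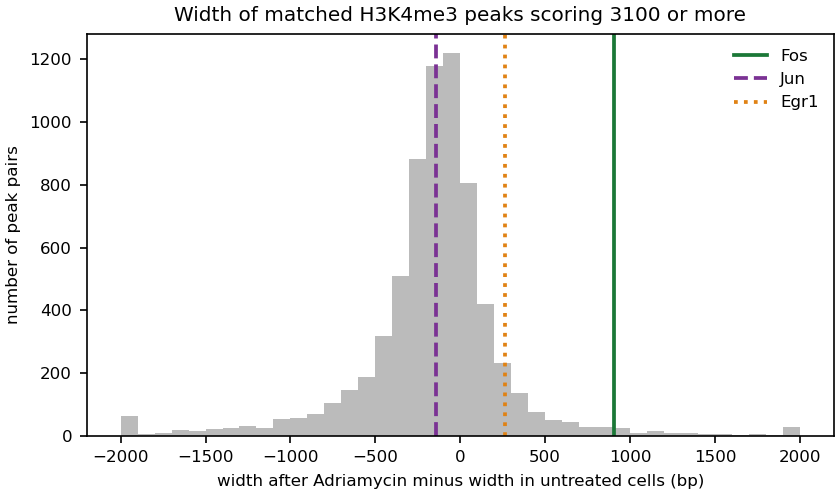
Width difference in bases, Adriamycin minus untreated, of 6888 matched H3K4me3 peak pairs with a score of 3100 or more in both lists (grey bars, counts of pairs, with the end bars holding all pairs beyond them). Fos lies far right at 908, Egr1 at 263, and Jun at -145 near the median of -124.

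H3K79me2, which is laid down behind transcribing Pol II, was narrow at Fos. A peak lay 1909 to 2991 bases from the start after Adriamycin (score 198.92) and 1917 to 2998 bases from it in untreated cells (score 117.6). It covered 1083 and 1082 bases. The mark was thus in the distal part of the gene in both lists, in the same place as the distal Pol II peaks. The inner edge of H3K4me3 passed into it in the Adriamycin list, where 600 bases lay under both marks, against 0 in untreated cells.

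H3K27me3 lay over Fos in both lists. After Adriamycin peaks lay 0.0660 to 1.32 kb (score 99.18) and 1.91 to 2.94 kb (score 266.89) from the start. In untreated cells they lay from 0.0280 kb before the start to 1.58 kb into the gene (score 389.52) and 1.86 to 2.99 kb (score 290.68). They covered 67.9% of the gene after Adriamycin and 80.6% in untreated cells. By score the peak nearer the start stood within the top 45.2% of the Adriamycin and the top 11.8% of the untreated H3K27me3 list. The distal peak stood within the top 14.2% and the top 15.9% in the same order. In the whole window H3K27me3 covered 3.75 kb and 5.69 kb, a log2 ratio of -0.50. That is not far from the median of -0.28 over the 22471 windows with the mark, of which 31.2% had a ratio as low or lower.

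The Fos window held 2 further H3K4me3 sites. The first lay 19.2 to 17.7 kb before the start after Adriamycin and 19.1 to 17.7 kb before it in untreated cells, with Pol II over it in both. The second lay 11.5 to 12.8 kb after the start in the Adriamycin list and 11.5 to 13.3 kb in the untreated list. H3K27me3 overlapped the second site in untreated cells, where it spanned 12.7 to 14.4 kb, and lay past its edge after Adriamycin, at 12.9 to 14.0 kb. A weak Pol II peak at the second site (score 85.32) was in the untreated list only. In the RefSeq gene order Fos lies between the non-coding RNA genes Gm38543 and Gm32296.

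Jun, the AP-1 subunit that can also pair with itself, was the gene where a mark was present in 1 condition only. H3K27me3 covered 0 kb of the Jun window after Adriamycin and 3.51 kb in untreated cells. The untreated list held a peak of 2836 bases from 0.738 to 3.57 kb after the start (score 279.0), which covered 77.2% of the gene, and a weak one from 3.82 to 4.50 kb (score 56.61). After Adriamycin the nearest H3K27me3 peak lay 24.2 kb from the start, on the upstream side. With depth unknown, the lack of a called peak does not show that the mark was gone. With 1 kb added the log2 ratio was -2.17, and its size depends on that constant because the Adriamycin value is 0. It was the 1 call among 11 combinations of gene and target. For H3K27me3, 7.73% of windows were called in the lower direction, and 0.147% had a ratio as low as that of Jun or lower. In either direction, 1.51% of windows were called for H3K4me3, 8.37% for H3K27me3, 4.40% for H3K79me2 and 16.8% for Pol II.

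**Figure D4:**
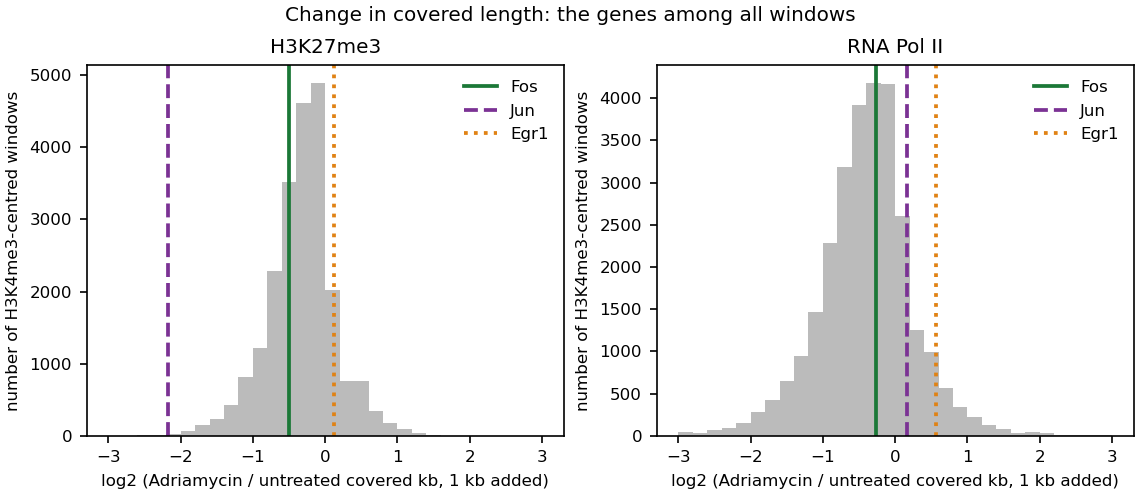
Log2 ratio of covered length, Adriamycin over untreated with 1 kb added, in windows of 43.5 kb centred on H3K4me3 regions (grey, counts of windows, for H3K27me3 on the left and Pol II on the right; end bars hold all windows beyond them). Lines mark the windows of Fos, Jun and Egr1; Jun is at -2.17 for H3K27me3 and Egr1 at 0.56 for Pol II.

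The H3K27me3 peak over Jun was not among the strong ones at H3K4me3 regions. Of the 10145 regions with the mark in untreated cells, 5711 had a peak of score 400 or more, against 279.0 at Jun. Over all untreated H3K27me3 peaks, 16.6% reached the score of the Jun peak. Of 1573 H3K4me3 regions whose strongest untreated H3K27me3 peak scored 200 to under 400, 19.1% had no H3K27me3 peak after Adriamycin. At 400 or more this share was 3.61%, and over all 10145 regions it was 18.3%. The lack of a peak over the promoter region was thus not rare for its score. These regions were not matched to Jun by width, and 3.51% of all regions were as wide as that of Jun. A whole window without the mark after Adriamycin was found at 25 of the 12496 windows with at least as many H3K27me3 bases as Jun in untreated cells. These windows were not matched to Jun by peak score, so this count cannot be set against the 19.1%.

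H3K4me3 and Pol II were called at Jun in both conditions. H3K4me3 lay from 1530 bases before to 3090 bases after the start in the Adriamycin list and from 1760 bases before to 3005 bases after it in the untreated list. It covered 95.7% and 93.0% of the gene. In untreated cells 2268 bases lay under both H3K4me3 and H3K27me3, the pair of marks known as bivalent. After Adriamycin this was 0. A population of cells was profiled, so 2 marks on the same chromosome copy and marks in different cells cannot be told apart.

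Pol II at Jun was strong for its list in both conditions. After Adriamycin the peak over the start spanned 1.02 kb before to 0.784 kb after it (score 1626.63, within the top 2.32% of its list). In untreated cells that stretch held 2 peaks with 7 bases between them, from 1.08 kb before to 0.106 kb after the start (score 939.17) and from 0.114 to 0.664 kb (score 1612.68, within the top 7.20%). A further peak over the gene spanned 0.972 to 2.77 kb after Adriamycin (score 112.71) and 0.987 to 2.67 kb in untreated cells (score 87.84). A short peak across the gene's end, 2.98 to 3.36 kb from the start (score 57.78), was in the Adriamycin list only and had 252 of its 378 bases inside the gene. Over the Jun window Pol II covered 3.98 kb after Adriamycin and 3.42 kb in untreated cells, a log2 ratio of 0.17, and 14.0% of windows had a ratio as high or higher.

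No H3K79me2 peak lay in the Jun window in either list. The nearest was 73.4 kb from the start after Adriamycin and 73.2 kb in untreated cells. Jun therefore carried Pol II over most of its length without a called H3K79me2 peak, unlike Fos and Egr1. Its neighbours in the RefSeq order are non-coding RNA genes as well, Gm12694 and Junos.

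Egr1, like Fos, carried 4 of the 5 targets over its gene in both conditions. The largest difference at Egr1 was in Pol II. In its window Pol II covered 6.51 kb after Adriamycin and 4.09 kb in untreated cells, a log2 ratio of 0.56. This was below the size counted as a call. Of 28249 windows, 5.80% had a ratio as high or higher. With 50 kb on each side of the gene the ratio turned to -0.53, since between 20 and 50 kb from Egr1 Pol II covered 5.77 kb after Adriamycin and 14.0 kb in untreated cells.

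Pol II peaks at the Egr1 gene matched in place between the lists, and those over the gene were wider after Adriamycin. Over the start the peak spanned 0.296 kb before to 0.979 kb after it in the Adriamycin list (score 1941.0, within the top 1.49%). In the untreated list it spanned 0.290 kb before to 0.815 kb after the start (score 387.97, within the top 22.3%). The next peak spanned 1.14 to 3.08 kb after Adriamycin (1936 bases, score 514.23) and 1.85 to 2.53 kb in untreated cells (683 bases, score 103.98). A peak across the gene's end spanned 3.56 to 4.76 kb after Adriamycin and 3.69 to 4.72 kb in untreated cells. A peak before the start spanned 1.48 to 0.394 kb upstream and 1.62 to 0.354 kb upstream in the same order. In the untreated list the start peaks of Egr1 and Fos ranked close together.

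H3K79me2 lay over nearly the whole of Egr1. Its peak spanned 0.0270 to 3.28 kb from the start after Adriamycin (score 770.76, within the top 16.4% of its list). In untreated cells it spanned 0.0100 kb before to 3.06 kb after the start (score 293.74, within the top 33.9%). It covered 86.8% of the gene after Adriamycin and 81.6% in untreated cells. The log2 ratio in the window was 0.06, and 17.4% of windows had a ratio as high or higher.

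H3K27me3 also lay over Egr1 in both lists. It covered 81.8% of the gene after Adriamycin, in a peak over the start (score 160.26, within the top 25.8% of its list) and a longer one. The longer peak spanned 0.888 to 3.07 kb (score 535.61, within the top 6.29%). In untreated cells H3K27me3 covered 82.8%, in 1 peak from 0.0210 to 3.13 kb (score 1347.15, within the top 3.01% of its list). The split left a gap of 4 bases between the Adriamycin peaks. Over the window H3K27me3 covered 7.41 kb after Adriamycin and 6.73 kb in untreated cells. The log2 ratio was 0.12, while 18.8% of windows had a ratio above 0. With peaks of score 100 or more this sign turned.

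The bases under H3K27me3 at Egr1 were nearly the same as those under H3K79me2. Both marks lay over 3043 bases after Adriamycin and 3038 in untreated cells. At Fos both covered 1032 and 1078 bases. Among H3K4me3 regions with H3K79me2, H3K27me3 was also present in 7.74% after Adriamycin and 10.2% in untreated cells. At 2 of 3 genes the Adriamycin lists had more bases under both Pol II and H3K27me3. These were 3914 against 2370 in untreated cells at Egr1 and 2136 against 1100 at Fos. At Jun they were 0 against 1688. Over the Fos and Egr1 genes Pol II was longer in the Adriamycin lists and H3K27me3 was shorter. The larger overlap is therefore not read as a result apart from the longer Pol II peaks. Its share over all windows was not taken.

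**Figure D5:**
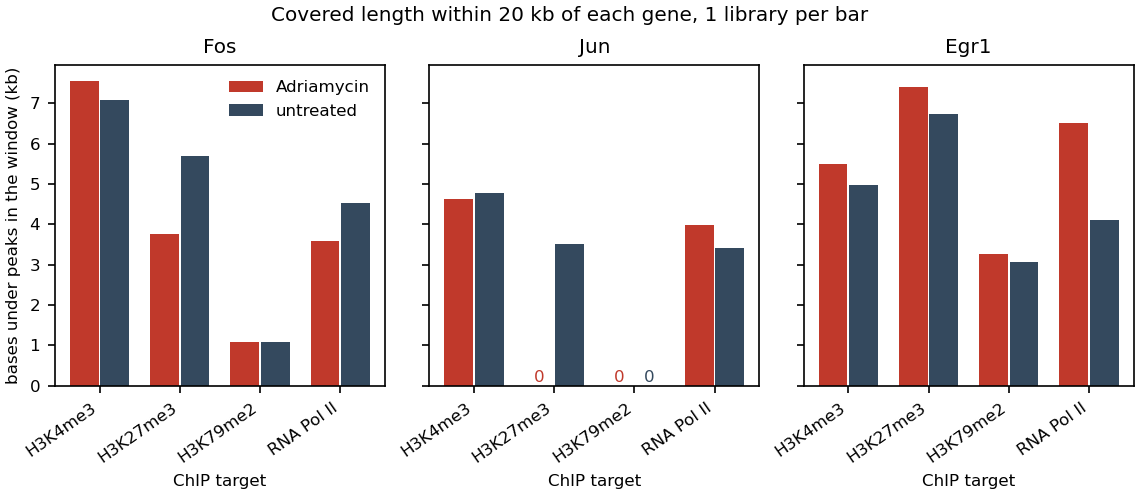
Bases under peaks (kb) within the gene and 20 kb on each side, by target, 1 library per bar, with Adriamycin (red) left of untreated (dark blue). H3K27me3 at Jun is 0 against 3.51 kb, and Pol II at Egr1 is 6.51 kb against 4.09 kb.

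The promoter H3K4me3 regions of the 3 genes were wide and similar in length, at 4828 bases for Fos, 4851 for Jun and 4701 for Egr1. Regions as wide made up 3.54%, 3.51% and 3.87% of all 32392. The regions of Fos and Egr1 held H3K27me3, H3K79me2 and Pol II in both conditions, a combination found at 610 regions (1.88%, exact 95% interval 1.74 to 2.04%). In single conditions the 3 targets together were at 2.40% of regions after Adriamycin and 3.60% in untreated cells. A region joins the H3K4me3 peaks of both lists. At Fos the untreated H3K79me2 peak met it only in the part reached by the Adriamycin H3K4me3 peak alone. Untreated H3K4me3 and H3K79me2 peaks shared 0 bases at Fos. The region of Jun held Pol II in both conditions, H3K27me3 in untreated cells only and no H3K79me2, as did 503 regions (1.55%, interval 1.42 to 1.69%). The intervals cover counting error within these lists only.

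Inside these regions Pol II covered 79.9% after Adriamycin and 65.1% in untreated cells at Egr1, and 6.99% of 16803 regions with Pol II in both lists gained as much. At Jun it covered 76.6% and 70.5%, and 15.7% of regions gained as much. At Fos it covered 43.2% and 46.2%, since the region extends upstream, where a weak untreated Pol II peak 1.93 to 1.05 kb before the start (score 69.11) had no partner after Adriamycin. More of the region was covered after Adriamycin at 2 of 3 genes, against 32.4% of all regions and 19.5% of those at least 4 kb wide.

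hnRNP L had 0 peaks in the 3 windows in either condition. The nearest peaks to Fos, Jun and Egr1 lay 7362, 1208 and 729 kb from the start after Adriamycin, and 1536, 1208 and 8052 kb in untreated cells. Absence was the usual state, since 1.45% of windows held a peak of hnRNP L in either list.

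Of the member peaks, 6 of 32 after Adriamycin and 7 of 34 in untreated cells had no peak of the same target overlapping them in the other condition. Over all lists these shares were 22.6% and 34.5%. All 6 in the Adriamycin lists had scores under 100, as did 6 of the 7 in the untreated lists. The exception was the H3K27me3 peak over Jun. None of the 6 H3K4me3 or 2 H3K79me2 peaks of each condition lacked a partner, where 15.8% and 18.0% did over the Adriamycin lists and 14.5% and 19.0% over the untreated lists. For Pol II, 3 of 12 peaks after Adriamycin and 3 of 13 in untreated cells had none, against 26.1% and 48.0% over the lists. For H3K27me3, 3 of 12 after Adriamycin and 4 of 13 in untreated cells had none. Over its lists the share was 26.7 to 27.3% after Adriamycin (exact 95% interval) and 41.2% in untreated cells.

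The weaker unpartnered peaks lay mostly away from the genes. Upstream of Egr1 H3K27me3 covered 1952 bases after Adriamycin and 386 in untreated cells, in peaks with scores of at most 94.06. Upstream of Egr1 Pol II also had 2 weak peaks after Adriamycin, 14.6 to 14.1 kb and 13.4 to 12.9 kb before the start (scores 53.2 and 50.87). Egr1 lies between Gm41689 and Etf1 in the RefSeq order. A strong H3K27me3 site lay 23.0 to 25.8 kb after its start in the Adriamycin list and 23.3 to 26.2 kb in the untreated list, partly outside the window.

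The edge of the windows decided a few members. At Fos a Pol II peak in the untreated list (score 76.19) reached 380 bases into the window, and the nearest one outside (score 66.41) lay 832 bases beyond it. At Egr1 an untreated H3K27me3 peak (score 1087.19) reached 467 bases into the window and an untreated Pol II peak (score 459.18) lay 239 bases outside. At Jun no peak lay near the edge, with the nearest outside 2925 bases beyond it.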

How the data were processed

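ChIP-seq peak lists for 5 targets in 2 conditions, 1 library each, were used as deposited. Per the submitters' processing notes, CASAVA 1.8.2 and MACS 1.4.1 were used with build mm9. The deposited score of each peak (50 or more) was used within its own list only. Depth and any input library are not given in the sources used, and more or fewer reads could lengthen or shorten every peak of a list. Coordinates are 1-based. Peaks with at least 1 bp of overlap were partners. Fos, Jun, Egr1, and the comparisons were chosen with earlier results of these data known. The text names these genes and their peaks. The division of genes at 1 kb, the shares of the gene and of H3K4me3 regions, score bands, width pairs and motifs were chosen after values were seen. Other immediate early genes and marker genes were not analysed here, for want of mm9 annotation. The direction of Egr1 is general knowledge, and its promoter sequence is not shown. Intervals are exact Clopper-Pearson 95% intervals. Interval steps were tested on simulated data. Python 3.11.15, numpy 2.4.6, SciPy 1.17.1 and matplotlib 3.10.9 were used.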

Additional observations from a re-analysis of the deposited data

How the results depend on the processing

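The 11 log2 ratios of covered length were recomputed under 6 alternatives. With the log2 undone, they stayed within a factor of 1.5 of the reported ratio in 63 of 66 cases. For H3K27me3 at Jun the log2 ratio was -1.03 with a window of 50 kb and -4.21 with 0.2 kb added. For Pol II at Egr1 it was -0.53 with a window of 50 kb. Within the limit, the log2 ratio for Pol II at Jun was 0.75 with peaks of score 100 or more, against the reported 0.17. The sign turned in 6 cases, all for ratios below the size of a call: Pol II at Fos in 3, and H3K27me3, H3K79me2 and Pol II at Egr1 in 1 each. Counts of peaks without a partner depended on the setting. After Adriamycin they were 0 at a score of 100 or more, 2 with a window of 5 kb and 16 with one of 50 kb. In untreated cells they were 4 when a peak within 1 kb counted as a partner, 1 at a score of 100 or more, 3 with 5 kb and 38 with 50 kb. Under alternatives added after the data were seen, Pol II covered more of each of the 3 genes after Adriamycin in each of 3 settings, and at Jun the difference was 1928 bases at a score of 100 or more. The cause of these shifts was not tested. No paired analysis was possible because there was 1 library per target and condition. Read depth is unknown, so a missing peak does not show that a mark is absent.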

Other observations

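Between 20 and 50 kb from the genes, the lists differed by gene. Around Egr1, H3K79me2 covered 15.7 kb after Adriamycin and 19.8 kb in untreated cells, and Pol II had 5 further peaks after Adriamycin and 16 in untreated cells. Around Fos, H3K27me3 covered 4.01 kb after Adriamycin and 7.43 kb in untreated cells. Around Jun it covered 3.52 kb after Adriamycin and 4.68 kb in untreated cells, so the mark was still called in the flanks of Jun after Adriamycin, in 6 further peaks against 7. These flanks may hold other genes, and their peaks were not assigned.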
